A study of Mus musculus with 2 samples.

Results

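The mouse genes Zfp900 to Zfp999 are a numbered run of zinc finger genes, many of them packed into clusters of near neighbours. The members were all autosomal protein-coding genes with a symbol from Zfp900 to Zfp999 in the RefSeq table of mouse build mm10. There were 62 of them among 20665 autosomal protein-coding genes. DNA methylation at CpGs was measured in 2 haploid embryonic stem cell lines, with 1 library for each. The background of A129-2 was 129Sv and that of AOS-14 was C57BL/6. Both lines were sorted from AG-haploid embryos, an abbreviation that the labels do not spell out, and each is a single line. Line and strain therefore cannot be told apart, and no difference has a replicate check. Reads of both lines were placed on mm10. The part of strain differences in sequence or copy number in the levels and depths was not tested. Every test set the reads of one library against those of the other, not strain against strain, and intervals cover counting error only, because reads of a library are not independent cultures and no molecular identifiers are described. No expression was measured, so the labelled cell type was not checked against markers.

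Most proteins of this kind join a KRAB domain to a row of C2H2 zinc fingers. The fingers bind DNA, often within transposable elements, and the KRAB domain recruits the co-repressor TRIM28. TRIM28 in turn brings the histone H3 lysine 9 methyltransferase SETDB1, and the bound sequence is silenced. The genes multiply by tandem duplication, and rodents hold many members without a counterpart in other mammals. Their fingers are usually encoded in 1 long last exon, far from the start. In the gene table Zfp979 also carries the name Ssm1b, for a modifier of transgene methylation that differs between mouse strains, and Zfp932 the name Znf431.

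On the autosomes 1637419 CpGs were listed for A129-2 and 1754780 for AOS-14, and 10 reads or more covered 1031468 and 1127547 of them. A CpG was compared where both libraries had at least 10 reads. The compared CpGs of the 62 genes, from 2 kb outside one gene end to 2 kb outside the other, numbered 831, and 14 of these lay in the reach of more than 1 member. Their median depth was 85 reads in A129-2 and 148 in AOS-14, against 79 and 97 over all 997556 compared autosomal CpGs. A gene needed 5 compared CpGs to be tested. In this way 38 of the 62 members were tested (61.3%), against 75.6% of all genes and 87.2% of the other 298 genes whose symbol is Zfp and a number. The remaining 24 included 16 with no compared CpG and 8 with 1 to 4, and for Zfp990, Zfp987 and Zfp985 neither library listed a CpG.

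The members lay on 13 chromosomes. Taking neighbours at most 1 Mb apart, all but 20 fell into 6 clusters. The cluster on chromosome 4 held 14 genes (145510759 to 147849126), chromosome 17 held 10 (21565816 to 22867309) and chromosome 2 held 9 (175372034 to 178078425). Chromosomes 7, 8 and 13 held clusters of 4, 3 and 2. The other 20 members stood alone.

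The sequence before the start shows how alike some of these genes are. RefSeq sequences of mm10 (GRCm38.p6) running from 250 bases before the start to 50 after were on hand for 55 of the 62 members. Those of Zfp966 and Zfp967 were identical throughout, those of Zfp968 and Zfp973 matched at 99.7% of bases, and the 36 pairs within the chromosome 2 cluster had a median identity of 76.2%. Pairs from different places had a median of 45.7%, and pairs within the chromosome 4 and 17 clusters had 47.3% and 46.0%. Single pairs there reached 89.7% (Zfp979 and Zfp980, chromosome 4) and 83.0% (Zfp942 and Zfp944, chromosome 17), against 68.3% at most between places. The 6 pairs of the chromosome 7 cluster had a median of 71.2% and reached 89.7%. A stretch of 55 bases near the start was identical in 7 of the 9 chromosome 2 genes, Zfp965, Zfp966, Zfp967, Zfp968, Zfp970, Zfp971 and Zfp973. It is printed first below, from Zfp966 (minus strand, chr2:175931128-175931182), then as it stands in its chromosome 2 neighbours Zfp931 (minus strand, chr2:178078497-178078551) and Zfp972 (minus strand, chr2:177925701-177925755) and in Zfp976 of the chromosome 7 cluster (minus strand, chr7:42642620-42642674), to show which bases differ within and across clusters. Capitals mark TCACTCAAGACTC, CCAAT and CTGCCAGTCAGAA where they occur.
Zfp966: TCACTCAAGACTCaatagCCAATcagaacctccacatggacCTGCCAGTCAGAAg
Zfp931: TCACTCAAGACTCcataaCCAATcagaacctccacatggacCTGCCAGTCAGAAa
Zfp972: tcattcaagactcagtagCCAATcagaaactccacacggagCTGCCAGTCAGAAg
Zfp976: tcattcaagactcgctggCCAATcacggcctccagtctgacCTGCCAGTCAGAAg

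Counted from 1 at the 5′ end of the stretch, Zfp931 differed from the 7 identical genes by A14C, G18A and G55A. Zfp972 differed at 5 positions, Zfp976 at 11, Zfp975, Zfp977 and Zfp936 at 13 each and Zfp951, on chromosome 5, at 17. CTGCCAGTCAGAA was the longest word that all 13 promoters of the chromosome 2 and 7 clusters shared. Read on both strands of the 250 bases before the start, it occurred in 14 of 55 members (25.5%), in 0.407% of 246 other Zfp-numbered genes and in 0.225% of all 16457 promoters. TCACTCAAGACTC occurred in 18.2% of members, 0.407% of other Zfp-numbered genes and 0.201% of all promoters. CCAAT, which overlaps neither longer word in the stretch, occurred in 76.4% of members, 43.5% of other Zfp-numbered genes and 36.2% of all promoters. TTCCGG occurred in 40% of members, 28.0% of other Zfp-numbered genes and 15.5% of all promoters, and GGGCGG in 32.7%, 42.3% and 43.6%. TATAAA was in none of the 55 members, in 6.50% of other Zfp-numbered genes and in 12.5% of all promoters. These words were chosen after the sequences were seen, and a match is a description of letters and not a bound site.

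The promoters were poor in CpGs. The 250 bases before the start held a median of 6 CpGs in the members (range 1 to 22), against 12 in other Zfp-numbered genes and 10 over all genes. The 4 given whole, with the compared CpGs in capitals, are among the 5 with most compared CpGs in these bases and show where the measured bases sit. Zfp951 also had 5, as Zfp933 had, at 3.20% and 5.92%, and the tie was broken by the order of the symbols. They are Zfp946 (plus strand, chr17:22423952-22424201), Zfp961 (plus strand, chr8:71950816-71951065), Zfp974 (minus strand, chr7:27929459-27929708) and Zfp933 (minus strand, chr4:147848419-147848668). The spans in the gene table reach past the start used here in all 4, and in Zfp976 above. In Zfp974, Zfp933 and Zfp976 all or nearly all of the printed bases therefore also lie inside the annotated gene. In Zfp946 and Zfp961 only the last bases do, from 22424182 and 71951048. The table gives no exons.
Zfp946: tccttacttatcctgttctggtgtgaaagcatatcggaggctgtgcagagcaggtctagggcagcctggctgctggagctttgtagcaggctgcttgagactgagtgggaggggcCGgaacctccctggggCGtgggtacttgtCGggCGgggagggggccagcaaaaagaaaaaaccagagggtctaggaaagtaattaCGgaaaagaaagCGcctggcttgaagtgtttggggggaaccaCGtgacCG
Zfp961: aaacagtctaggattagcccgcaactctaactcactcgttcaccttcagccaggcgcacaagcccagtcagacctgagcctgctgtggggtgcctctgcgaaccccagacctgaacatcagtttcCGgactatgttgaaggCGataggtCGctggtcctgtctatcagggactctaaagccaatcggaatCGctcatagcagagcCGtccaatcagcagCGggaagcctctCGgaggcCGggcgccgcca
Zfp974: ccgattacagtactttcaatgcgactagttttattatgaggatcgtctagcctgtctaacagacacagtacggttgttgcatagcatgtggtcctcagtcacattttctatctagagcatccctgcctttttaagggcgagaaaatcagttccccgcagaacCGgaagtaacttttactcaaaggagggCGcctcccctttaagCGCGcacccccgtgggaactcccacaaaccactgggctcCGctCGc
Zfp933: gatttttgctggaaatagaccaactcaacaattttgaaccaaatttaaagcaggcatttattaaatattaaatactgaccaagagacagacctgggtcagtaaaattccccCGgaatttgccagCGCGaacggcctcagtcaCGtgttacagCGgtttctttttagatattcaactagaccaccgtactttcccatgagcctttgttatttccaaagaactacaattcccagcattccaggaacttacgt

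Methylation was low in both libraries at nearly every one of these CpGs. In Zfp946 the CpG 135 bases before the start read 23.5% in A129-2 and 15.2% in AOS-14, and the CpG 2 bases before it 5.26% and 7.55%. In Zfp961 the CpG 12 bases before the start read 9.17% and 16.2%, and the next CpG upstream, at 19 bases, 1.23% and 0.552%. The 6 capitalised CpGs of Zfp974 reached 6.06% in A129-2 and 4.26% in AOS-14 at most, both at the CpG 88 bases before the start, and the 5 of Zfp933 reached 4.26% and 6.45% at 139 bases. In the chromosome 2 genes, which share the 55-base stretch, the compared CpGs lay after the start instead, 235 to 509 bases into the gene.

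Each gene was divided into its ends, from 2 kb outside to 1 kb inside, and the interior between them. The CpG-rich end was the one with at least 5 listed CpGs and at least 2 times as many as the other end. It was resolved in 32 of the 38 tested members. It was on the side of the annotated start in 30 of them, not in Zfp936, and in Zfp978 the start was not in the promoter table. A level is the mean over compared CpGs of a part with at least 3, its SD is over CpGs, which are not replicates, and a difference is in percentage points, negative where A129-2 was the lower. A part was called where Fisher's exact test on summed reads, two-sided, gave a Benjamini-Hochberg adjusted p under 0.05 over all genes and the levels differed by at least 10 points.

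At the CpG-rich end the members were nearly unmethylated in both libraries. The median over 29 members was 3.44% for A129-2, between 0.980% and 6.39%, and 3.73% for AOS-14, between 0.521% and 13.2%, with a median difference of -0.88 points. Without CCGG sites, where reduced representation libraries are cut, the medians over 23 members were 0.455% and 0.875%. The other Zfp-numbered genes had medians of 3.15% and 3.75%, and all 12046 genes 2.95% and 3.70%. Of the 29 members 1 was called lower in A129-2 and none higher, where 3.15% of all genes were called lower and 0.0332% higher. Without the size limit 8 of 29 passed the adjusted p as lower and none as higher, against 37.1% and 0.797% of all genes. A Cochran-Mantel-Haenszel test, which compares reads within each CpG, passed 10 of 29 as lower, against 41.2%. At 25 points none was called, against 0.166%. The level was lower in A129-2 in 19 members and higher in 10, while it was lower in 86.4% of all genes. The higher included Zfp965, Zfp966, Zfp967, Zfp968, Zfp971 and Zfp973 of the chromosome 2 cluster, whose sequences are alike. The lower included Zfp942 and Zfp943, which share their CpGs. An end had a median of 8 compared CpGs in members and 30 over all genes. Weighted by reads the level was lower in 22 and higher in 7, because the small differences of Zfp995, Zfp946 and Zfp974, none of them called, changed sign.

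The gene called was Zfp978, of the chromosome 4 cluster. Its 22 CpGs had a level of 2.99% ± 5.05 (SD over CpGs) in A129-2 and 13.2% ± 9.02 in AOS-14, a difference of -10.2 points, with 21 of 22 CpGs lower in A129-2 (Fisher's exact test, adjusted p = 6.12e-68). The call rested on the size limit: the difference was between -9.95 and -9.03 points when CpGs of 5 reads were admitted, when levels were weighted by reads, without CCGG sites, or without recurrent CpG spacing. Spacing is called recurrent where 5 compared CpGs repeat, base for base, the steps of another such run, as copies of a sequence do. Of the 22 CpGs, 18 lay in such runs, and they lay within 1.5 kb of the pseudogene Vmn2r-ps18.

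Other gene ends differed less. Zfp947, on chromosome 17, had 2.88% in A129-2 and 8.34% in AOS-14 from its 6 CpGs (Fisher's exact test, adjusted p = 0.121). Zfp931 had 2.74% and 6.08% over 7 CpGs (adjusted p = 0.0719), and Zfp951 had 3.20% and 5.92% over 5 (adjusted p = 0.835, both by Fisher's exact test). Zfp982, with 27 CpGs, had 4.09% and 6.95%, which passed the adjusted p (1.03e-31, Fisher's exact test) but not the size limit. Higher levels in A129-2 were as small: Zfp967 had 4.55% in A129-2 and 1.77% in AOS-14, Zfp966 had 5.77% and 3.18%, Zfp971 had 5.58% and 4.90%, and Zfp950 had 3.92% and 3.34%. None of these 4 passed the adjusted p. The lowest levels in AOS-14 were those of Zfp968 (0.980% in A129-2 and 0.521% in AOS-14) and then Zfp965, at 1.19% in A129-2, and the highest after Zfp978 and Zfp947 was that of Zfp964 (6.39% and 8.16%). Zfp942 and Zfp943 start beside each other and share the same 8 CpGs, at 1.16% and 3.64%.

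The remaining ends kept to the same narrow range. Among those with most CpGs, Zfp996, with 26, had 2.57% in A129-2 and 3.13% in AOS-14, and Zfp939, with 20, had 2.96% and 4.06%. Those of 10 to 12 CpGs were Zfp994 (3.43% and 3.85%), Zfp946 (3.99% and 3.73%), Zfp935 (2.47% and 3.34%), Zfp961 (3.49% and 5.39%) and Zfp970 (4.06% and 6.71%). With fewer CpGs, Zfp995 had 2.73% and 2.66%, Zfp983 3.44% and 3.47%, Zfp945 3.48% and 3.52%, Zfp973 3.81% and 3.50%, Zfp974 2.84% and 2.54%, Zfp938 3.77% and 4.94%, Zfp956 4.59% and 5.48%, and Zfp949 5.82% and 7.38%. Depth in A129-2 was 1.90 times that in AOS-14 at the end of Zfp996, 1.86 times at Zfp964 and 1.67 times at Zfp982, all outside the central 95% of gene ends, and the part of depth in these levels was not tested.

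**Figure D1:**
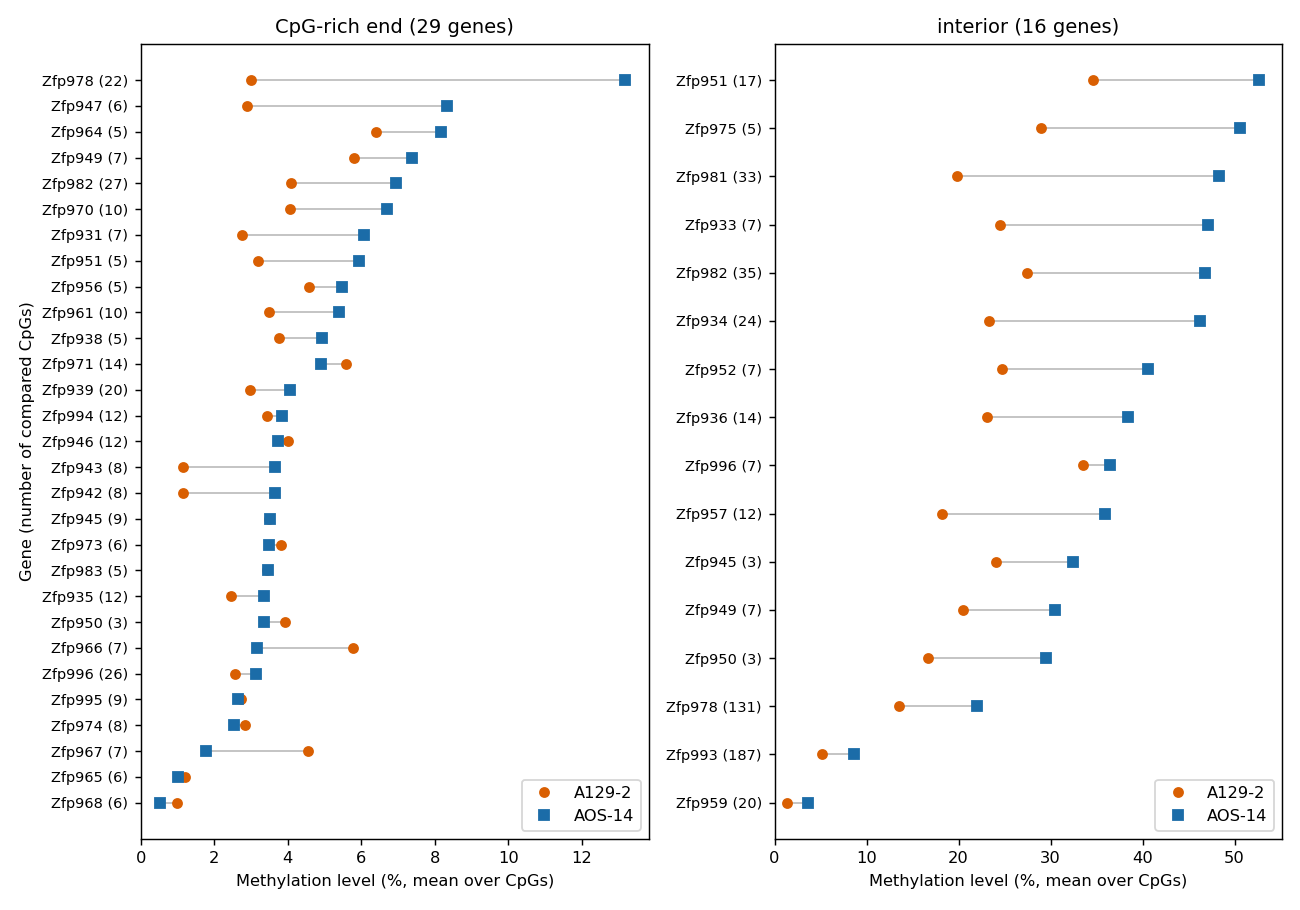
Methylation level in percent of each member at the CpG-rich end (left, 29 genes) and in the interior (right, 16 genes), with a circle for the A129-2 library, a square for the AOS-14 library and the number of compared CpGs in brackets; the 2 panels have different horizontal scales. At the CpG-rich end all but 1 square lie under 10% and circles fall on both sides of squares, while in the interior all 16 circles lie to the left of their squares.

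The interiors had higher medians than the CpG-rich ends. In each of the 16 members with a value the level was lower in A129-2. The medians were 23.2% for A129-2, between 1.35% and 34.6%, and 37.4% for AOS-14, between 3.59% and 52.6%, with a median difference of -15.6 points. Of these 16 members 11 were called lower and none higher, where 38.4% of all 11327 genes were called lower and 0.0177% higher. Without the size limit 15 of 16 passed as lower and none as higher, against 86% and 0.441% of all genes, and the Cochran-Mantel-Haenszel test also passed 15, against 87.2%. At 25 points only Zfp981 was called, against 1.48%. All genes had medians of 14.5% and 23.7% with a difference of -8.13 points, and the 182 other Zfp-numbered genes 11.4%, 17.9% and -6.43. The medians of the members lay above those of both other sets in each library, and whether the set differs from other genes was not tested. As a ratio of A129-2 to AOS-14 the median was 0.590 for the members and 0.645 over 11320 genes. Each member was also set beside the genes whose AOS-14 interior lay within 5 points of its own. The share of those with a larger fall ran from 8.51% for Zfp981 to 99.1% for Zfp996. The difference of Zfp982 was -19.3 points against a median of -18.8 in such genes. That of Zfp934 was -22.9 against -18.5, and that of Zfp951 -18.1 against -22.4.

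Zfp981 (chromosome 4, 146502000 to 146539395) showed the largest fall. Its 33 CpGs had a level of 19.9% ± 13.3 (SD over CpGs) in A129-2 and 48.3% ± 18.7 in AOS-14, and all 33 were lower in A129-2 (difference -28.5 points, Fisher's exact test, adjusted p = 1.59e-88). The summed reads gave 18.9% (exact 95% binomial interval 17.1% to 20.8%) and 44.3% (43.1% to 45.4%). These CpGs ran from position -11627 to -3435 relative to the start in the promoter table, inside the wider span that the gene table gives. Depth moved with the result here: A129-2 had 1705 reads and AOS-14 7399, a ratio of 0.230, when the central 95% of gene interiors ran from 0.422 to 1.46. Its part in the result was not tested. A group of 3 CpGs over 33 bp here (from 146507611) matched a group in Zfp978 (from 147223331) in length and number of CpGs. So did a group of 4 over 115 bp (from 146504383 and 147220102). Whether reads fit both genes was not tested.

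The next largest falls came from other clusters as well. Zfp934, on chromosome 13, had 23.3% ± 9.23 (SD over CpGs) in A129-2 and 46.2% ± 18.6 in AOS-14, with 23 of 24 CpGs lower (Fisher's exact test, adjusted p = 1.08e-112). Zfp933 had 24.5% and 47.1% with 7 of 7 CpGs lower (Fisher's exact test, adjusted p = 3.66e-47), although its promoter, printed above, was nearly unmethylated. Zfp975, on chromosome 7, had 28.9% and 50.6% with 5 of 5 lower (adjusted p = 1.17e-12), and Zfp982 had 27.5% and 46.8% with 34 of 35 lower (adjusted p = 2.16e-267, both by Fisher's exact test). Zfp951, on chromosome 5, had the highest interior of all in both libraries, 34.6% ± 13.3 and 52.6% ± 18.9, while its start lay at 3.20% and 5.92%.

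The other 5 called interiors had falls of 10 to 18 points. Zfp957 had 18.2% and 36.0% with 12 of 12 CpGs lower, and Zfp952 had 24.7% and 40.6% with 7 of 7 lower. Zfp936 had 23.1% and 38.4% with 13 of 14 lower, and all 14 lay before the start in the promoter table, the farthest at position -48468, inside the wider span of the gene table. Zfp950 had 16.7% and 29.5% with 3 of 3 lower, and Zfp949 had 20.5% and 30.5% with 6 of 7 lower. The call of Zfp949 was lost when levels were weighted by reads (-8.26 points) and when ends reached 0.5 kb inside (-5.79 points). That of Zfp945, at 24.1% and 32.4% over 3 CpGs, was gained under the same weighting (-19.4 points) and with CpGs of 5 reads (-23.5 points).

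Zfp996, on chromosome 12 (18387491 to 18406758), had the ratio of levels nearest to 1. Its 7 interior CpGs had 33.5% ± 11.3 (SD over CpGs) in A129-2 and 36.5% ± 7.08 in AOS-14, a difference of -2.92 points (Fisher's exact test, adjusted p = 0.00500), with a ratio of 0.920. Single sites went both ways. The CpG at 18391159 read 38.4% and 46.6% from 438 and 754 reads, and the CpG at 18398025 read 47.1% and 39.4% from 34 and 33. The 2207 genes whose AOS-14 interior lay within 5 points of that of Zfp996 had a median of 21.3% in A129-2.

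**Figure D2:**
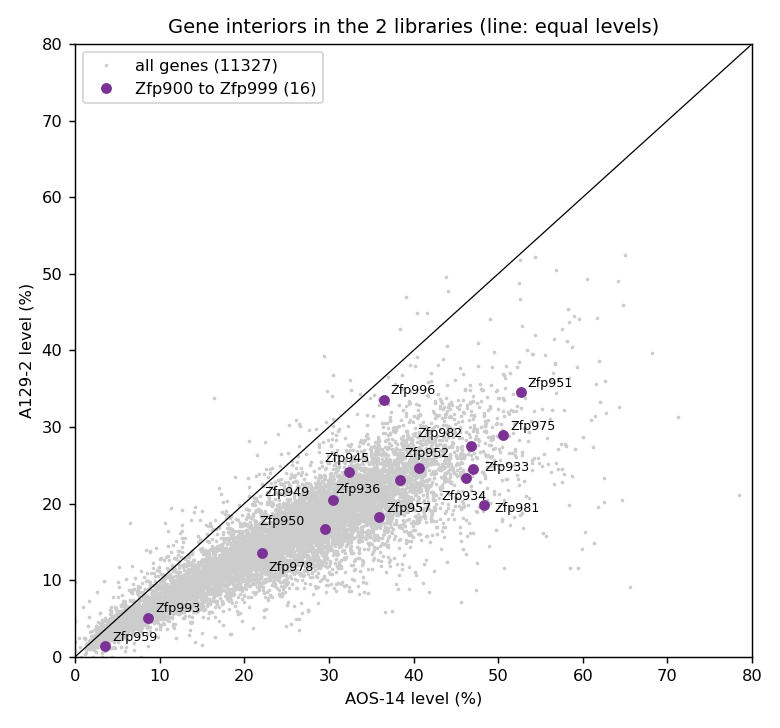
Interior methylation in percent in AOS-14 (horizontal) and A129-2 (vertical), with a small grey point for each of 11327 genes and a large labelled point for each of the 16 members; the line marks equal levels. All 16 members lie under the line, Zfp996 nearest to it among those above 20% and Zfp981 with the largest drop.

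Zfp959, Zfp993 and Zfp978 had the lowest interiors. The 20 compared CpGs of Zfp959 formed 1 group 49 to 406 bases after its start, with the annotated start inside the span of the gene, and read 1.35% and 3.59%. Zfp993 and Zfp978 span 479 kb and 267 kb of the chromosome 4 cluster and run over many other gene models. Their interiors averaged 5.12% and 8.63% over 187 CpGs and 13.5% and 22.0% over 131. Within Zfp993 a group of 97 CpGs beside the pseudogene Gm13233 read 2.38% in A129-2 and 2.74% in AOS-14, while a group of 11 beside the pseudogene Gm46896 read 15.9% and 40.4%, with 11 of 11 lower. Within Zfp978 a group of 38 CpGs beside the pseudogene Gm13135 read 3.20% and 3.69%, and a group of 6 with no other gene model within 1.5 kb read 17.4% and 62.9%. That group had 145 reads in A129-2 and 872 in AOS-14, and the part of depth in its values was not tested. With CpGs of recurrent spacing left out, both interiors passed the call, at -12.1 points for Zfp993 and -13.1 for Zfp978.

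The median level differed with the size of the local group, while the ranges overlapped. CpGs at most 500 bp apart were joined, which gave 85 groups of 3 or more. The 10 groups of 20 or more CpGs had a median of 2.97% in A129-2 and of 3.87% in AOS-14, and the 21 groups of 8 to 19 had 5.58% and 6.71%. The 54 groups of 3 to 7 CpGs had 19.3% and 35.4%, and 48 of these were lower in A129-2. The smallest groups ran from 0.980% to 55.0% in A129-2 and from 0.521% to 67.7% in AOS-14, and the largest from 1.35% to 8.06% and from 2.74% to 13.2%. Over single CpGs, 552 of the 831 were lower in A129-2, 170 were higher and 109 were equal.

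**Figure D3:**
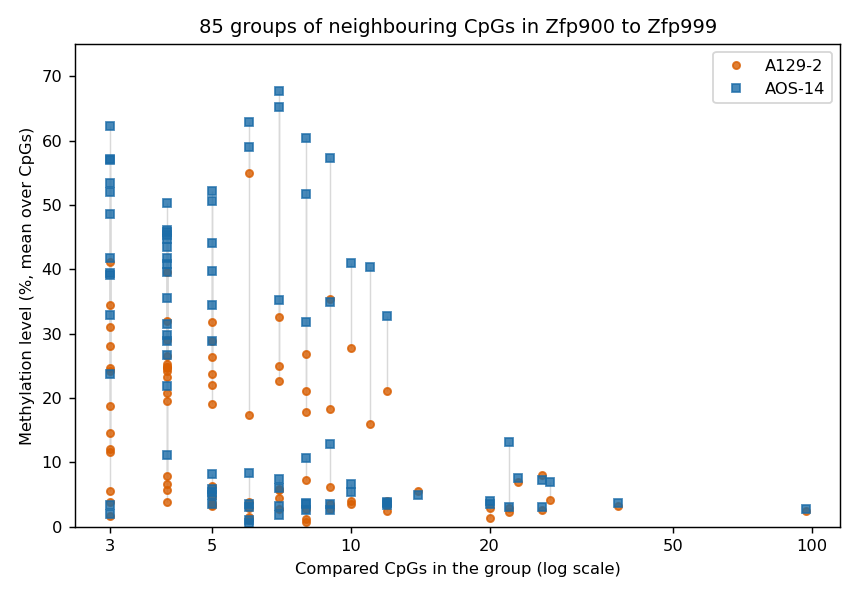
Each of the 85 groups of neighbouring CpGs in the members, by the number of compared CpGs in the group (horizontal, log scale) and its methylation level in percent (vertical), with a circle for A129-2, a square for AOS-14 and a line joining the pair. Groups of 20 or more CpGs lie under 15% in both libraries, and the wide gaps between libraries are among groups of 3 to 12.

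Mean levels were lowest near the annotated start. Within 0.5 kb of a start, 278 CpGs of 30 members averaged 3.33% ± 5.40 (SD over CpGs) in A129-2 and 4.49% ± 7.18 in AOS-14, and none of these 30 start windows was called, where 1.57% of all genes were called lower. From 0.5 to 1 kb, 14 CpGs averaged 5.28% and 6.40%. From 1 to 2 kb the means were 26.5% ± 10.3 and 51.7% ± 20.5 over 14 CpGs, and from 2 to 5 kb 29.3% and 52.0% over 14 more. These bins came from 3 and 4 genes and are thin, and different genes fill different bins. Of the 14 CpGs from 1 to 2 kb, 8 were a group of Zfp982 (from 147490501), measured from a start other than its first. Distance was counted in either direction. The CpGs from 1 to 2 kb, in Zfp979, Zfp993 and Zfp982, all lay before the start they were measured from. All genes averaged 6.90% and 10.2% at 1 to 2 kb and 10.7% and 16.9% at 2 to 5 kb. From 5 to 20 kb, where 17 members contributed 81 CpGs, the members averaged 22.3% and 39.5% and all genes 14.2% and 22.5%. Past 20 kb the members averaged 10.7% and 17.8% over 251 CpGs, most of them in Zfp993, whose CpG-dense groups are described above.

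**Figure D4:**
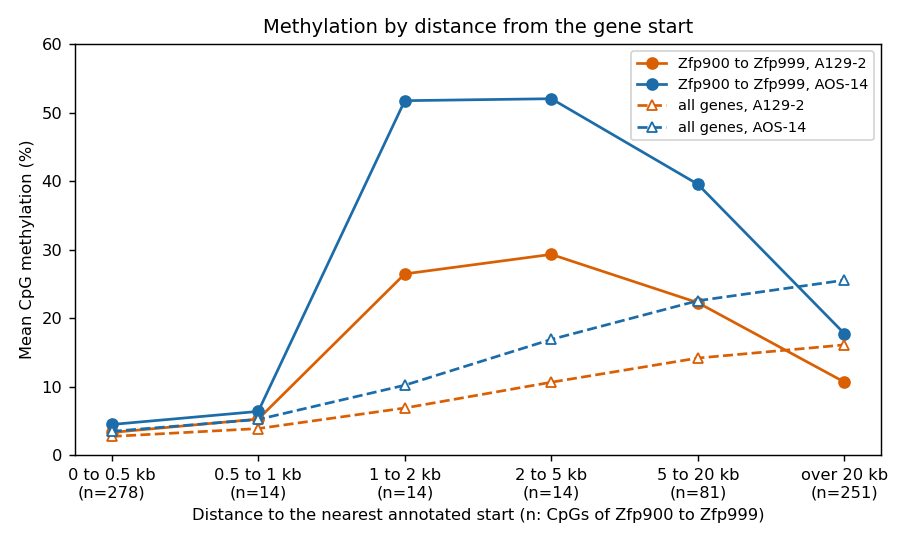
Mean CpG methylation in percent by distance to the nearest annotated start, for the members (solid lines, filled circles) and all genes (dashed lines, open triangles) in each library, with the number of member CpGs under each bin. Distance is counted in either direction. The members sit at 3.33% and 4.49% within 0.5 kb, at 26.5% and 51.7% from 1 to 2 kb where only 14 CpGs of 3 genes count, and drop again past 20 kb.

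The clusters differed in what could be measured. In the chromosome 2 cluster 8 of the 9 members, all but Zfp972, had a value, and every compared CpG lay at the CpG-rich end. Their median was 3.94% in A129-2 and 3.34% in AOS-14, and 2 of 8 were lower in A129-2, where 86.4% of all genes were. Of the 63 CpGs of these 8 members, 62 lay in recurrent spacing. Reads could come from more than 1 of these near-identical genes, and how such reads were placed is not given in the sources used here, so values of single chromosome 2 genes are uncertain. At Zfp968 and Zfp931 the depth in A129-2 was 0.416 and 0.454 times that in AOS-14, outside the central 95% of gene ends, and its part in their levels was not tested.

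In the chromosome 17 cluster the CpG-rich ends of 8 of 10 members had medians of 3.16% and 3.64%. Of these 6 of 8 were lower in A129-2, where 86.4% of all genes were. Only Zfp945 had an interior value there. In the chromosome 4 cluster 5 of 14 members were tested. Their interiors had medians of 19.9% and 46.8%, with 3 of 5 called, Zfp981, Zfp933 and Zfp982, where 38.4% of all genes were called lower. How reads that fit several places were treated is unknown here too, so values of single chromosome 4 genes can be uncertain. Both interiors of the chromosome 7 cluster, Zfp975 and Zfp936, were called, against the same 38.4%. On chromosome 13 the end of Zfp935 and the interior of its neighbour Zfp934, both given above, were 2.47% and 23.3% in A129-2. In the chromosome 8 cluster Zfp964 alone was tested. Of the members that stood alone, 7 had an interior, with medians of 20.5% and 36.0%. Of the 7, 5 were called, again against 38.4% of all genes.

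Pooled over the whole gene, 9 of the 38 members were called lower and none higher, where 9.62% of all genes were called lower and 0.0064% higher. They were Zfp981, Zfp934, Zfp975, Zfp957, Zfp936, Zfp952, Zfp951, Zfp933 and Zfp982, each of which was also called in the interior. The whole-gene reads include those of the interior, so these calls are not a second support. In Zfp981, Zfp934, Zfp975 and Zfp957 the interior held every compared CpG of the gene. Without the size limit 22 of 38 passed as lower and none as higher, against 81% and 0.589% of all genes, and the Cochran-Mantel-Haenszel test passed 23, against 83.8%. At 25 points only Zfp981 was called, against 0.499%. Members had medians of 5.68% and 8.57%, and all genes 6.20% and 9.02%. No member with a resolved CpG-rich end had a compared CpG at the other end, where 17.9% of all genes with a resolved end had at least 3. A few compared CpGs did lie near the far end from the start. In Zfp952, whose CpG-rich end was not resolved, the CpGs at 33004613 and 33004639, in the last kb of the gene, averaged 17.5% and 39.8%. In Zfp936, whose CpG-rich end was the far one, the single CpG there, at 43193050, read 19.5% and 42.1%.

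Some members below the limit of 5 CpGs still gave values, without a test. Zfp980, of the chromosome 4 cluster, had 23.2% in A129-2 and 46.1% in AOS-14 from 4 CpGs 11469 to 11576 bases after its start. Zfp979 had 25.3% and 31.6% over 4 CpGs at positions -1745 to -1618 relative to its start. Zfp941 had 36.9% and 38.7% over 3 CpGs, and Zfp932 had 1.67% and 1.96% over 3 CpGs 200 to 230 bases after its start. Zfp991 had 3.88% and 11.2%, Zfp960 10.5% and 14.2%, Zfp977 7.07% and 4.84%, and Zfp984 24.7% and 45.2% at its single CpG.

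For comparison, a list of co-repressors, DNA methyltransferases and related genes was put through the same tests, and 23 of those listed had 5 or more compared CpGs. The list also held zinc finger genes, Zfp809 and Zfp42 among them. Of the 17 with an interior value, 6 were called lower in A129-2 and none higher, against 38.4% of all genes. Setdb1, the histone methyltransferase, had an interior level of 6.69% in the A129-2 library and 25.8% in the AOS-14 library, from 4 CpGs, and Atf7ip, its binding partner, 20.1% and 50.7% over 10. The others were Chd4 (23.9% and 36.8%), a chromatin remodeller, Dnmt3b (24.1% and 40.2%), a de novo DNA methyltransferase, Pphln1 (23.4% and 38.8%), a subunit of the HUSH silencing complex, and Zfp809 (7.64% and 22.7%), a KRAB zinc finger protein that silences retroviruses. At the other end Uhrf1, which recruits DNA methyltransferase 1, was called among 4 with a value (15.4% and 38.2%), where 37.9% of all genes were, and over the whole gene Atf7ip and Zfp42, a zinc finger gene known as Rex1, were called among 23, where 9.62% of all genes were. At the CpG-rich end none of 17 was called, where 3.15% of all genes were. Trim28 had 2.47% and 0.999% there.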

How the data were processed

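Per the file headers, the authors deposited 1 table per library with the methylation level of each CpG as a fraction and the counts of all and of methylated reads behind it, both strands added. Per the submitters' processing notes, BSMAP and mm10 were used. The sources used here do not give its version, the trimming, or how duplicates and reads that fit several places were treated. The labels' protocols describe capture of about 100 Mb with paired 50 bp reads, while the series title names reduced representation sequencing, which cuts DNA at CCGG. Such sites made up 32.9% of the members' compared CpGs.

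Levels were recomputed as methylated over all reads, in percent, at CpGs that reached 10 reads in each library. Autosomal read calls totalled 148865946 in A129-2 and 173629358 in AOS-14. Gene spans are those of RefSeq for GRCm38.p6, whose table lists no strand or exons, so ends were oriented by CpG density, and 173 of 173 listed CpGs inside promoter sequences fell on a CpG there. Fisher's exact test was two-sided, its p-values were adjusted by Benjamini-Hochberg over all genes of a part, and it was tested on simulated data. Summed reads can differ where libraries spread reads unlike over CpGs of unlike level, so a Cochran-Mantel-Haenszel test by CpG was added. The size limit of 10 points was set because most gene ends have low levels in both lines.

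Members, lists and alternatives were chosen with earlier results of these data known. The text names, for each part, the 5 members with the largest and the 5 with the smallest fall, the 3 highest and 3 lowest in AOS-14, called co-repressor genes, Trim28 and Setdb1; further members, gene models and the 55-base stretch were chosen after their values were seen. Protein sequences were not used here. Of 62 members, 24 had too few CpGs. Python 3.11.15, pandas 2.3.3, numpy 2.4.6, scipy 1.17.1 and matplotlib 3.10.9 were used.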

Additional observations from a re-analysis of the deposited data

How the results depend on the processing

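No called difference changed sign under the alternatives run. Uncalled ones did, 20 times at CpG-rich ends and 15 over the whole gene, counted over members and settings. They arose with other read minimums, read weighting, without CCGG sites and without recurrent spacing, and none was in an interior. Of the main results, 242 values stayed within their limits and 38 moved. Of the values of single genes 1200 kept their status, most of them uncalled in both runs, while 30 gained a call and 25 lost one. With CpGs of at least 5 reads, no CpG-rich end was called, the AOS-14 medians were 4.92% there and 39.5% in the interior, and the median whole-gene differences were -10.7 points on chromosome 4 and -5.37 on chromosome 17. Weighted by reads, no CpG-rich end was called, the A129-2 interior median was 21.7%, and the whole-gene differences were -15.1 on chromosome 4 and -4.94 for members that stand alone. With 5 CpGs per part, or without Zfp993 and Zfp978 (added after seeing the data), the AOS-14 interior median was 39.5%, and in the latter case no CpG-rich end was called. Nor was one with ends set by the annotated start, also added then. Leaving out Zfp978 removes the only end called. With ends by annotated start Zfp978 has no end, because its start was not in the promoter table. Neither setting can therefore test that call. With ends reaching 0.5 kb inside, the interior medians were 20.2% and 30.9%. Without CCGG sites, 0 ends and 7 of 10 interiors were called, where 1.30% and 27.9% of all genes were, and medians in A129-2 and AOS-14 were 0.455% and 0.875% at the CpG-rich end, 20.8% and 41.9% in the interior and 1.62% and 1.18% over the whole gene, now the higher in A129-2, with median differences of -0.68 over the whole gene and -11.0 on chromosome 4. Without recurrent spacing, 0 of 17 ends were called, the AOS-14 median there was 5.39%, whole-gene medians were 10.3% and 16.4% with a difference of -5.79, and members that stand alone had -3.85. A 25-point minimum left 1 whole gene, 0 ends and 1 interior, and 1 co-repressor interior. With no minimum, 22 whole genes, 8 ends and 15 co-repressor interiors were called lower. The causes of these moves were not tested.

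With 1 library per line, no library could be left out. No paired analysis was possible because each line has 1 library. At Zfp950 and Zfp945 only 3 interior CpGs were compared, and 1 of those of Zfp945 had 12 reads in each library.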
